A study of Mus musculus with 12 samples.

Results

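The genes described here are 10 genes of the urea cycle and of nitrogen entry into it in mouse liver, namely Nags, Cps1, Otc, Ass1, Asl, Arg1, Slc25a15, Glud1, Gls2 and Hal. Members were all array probes whose transcript accession maps to 1 of these symbols, which gave 13 of the 39429 probes and 10 of the 20886 named genes on the array. Ass1, Glud1 and Otc had 2 probes each and the other genes had 1. The rule used no measured value.

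The urea cycle turns ammonia, which is toxic, into urea, and it runs mainly in the hepatocytes around the portal vein. Its first steps lie in the mitochondrion, where ammonia becomes carbamoyl phosphate and then citrulline, and the later steps lie in the cytosol, where citrulline is converted to arginine and arginine is split into urea and ornithine. Glutaminase, glutamate dehydrogenase and histidine ammonia-lyase release ammonia from amino acids. Hepatocytes around the central vein capture as glutamine the ammonia that is left. Liver expression of this pathway is known to follow protein intake, glucagon and glucocorticoids.

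The data were liver RNA of 12 female C57BL/6N mice, 3 per diet, taken after 6 months of feeding and hybridized to 1 single-colour Agilent array each. All mice ate a normal formula diet. In Ctrl its carbohydrate was corn starch with sucrose, RS was that diet with resveratrol added, in DJ rice of the variety Dongjin took the place of the starch and sucrose, and in DJ526 their place was taken by the resveratrol-enriched rice DJ526. DJ526 is Dongjin rice that carries a stilbene synthase gene of peanut, so that DJ526 and DJ differ in the transferred gene as well as in resveratrol. Mice shared cages, and the labels do not name the cage of a sample. A further list of samples exchanges the array identifiers of RS and DJ; the labels were followed, and under the exchange the RS and DJ values below would trade places.

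A level below is log2 of the processed signal minus log2 of the 75th percentile of its array, so that 0 is the 75th percentile and a difference of 1 is a doubling. Levels are compared between arrays for a probe and not between probes. The share of spots well above background was 73.0% to 80.8% per array. All 13 probes of these genes were among these spots, and unsaturated, on all 12 arrays. The arrays came from 3 slides of 4. Slide 1 held the 3 Ctrl arrays and DJ replicate 1, slide 2 the other 2 DJ arrays together with RS replicates 1 and 2, and the 3 DJ526 arrays shared slide 3 with RS replicate 3. No slide held both Ctrl and RS, both Ctrl and DJ526, or both DJ and DJ526, so that diet and slide can be separated for these pairs only through the other groups.

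The RefSeq promoter set had an entry for 6 of the 10 genes. That of Otc is shown because Otc had the lowest unadjusted limma p against Ctrl of all members, in DJ526. The 250 bases before its start, at chrX:10252055-10252304 on the plus strand of GRCm38.p6, are given 5′ to 3′, with capitals marking the only match to any of the motifs searched. The match, AAAGTTCA, has the letters of a binding element of HNF4A, a hepatocyte transcription factor, and it begins 68 bases before the start.
Otc: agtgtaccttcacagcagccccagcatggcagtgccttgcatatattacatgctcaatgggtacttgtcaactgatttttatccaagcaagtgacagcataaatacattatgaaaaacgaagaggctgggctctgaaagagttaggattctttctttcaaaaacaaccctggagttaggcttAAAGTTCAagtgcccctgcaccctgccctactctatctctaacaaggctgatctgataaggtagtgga
Of 32851 promoters of the same length, 1.02% held AAAGTTCA on either strand, and Otc was the only one of the 6 members that did. The variant AAAGTCCA was in 1.01% of promoters and the cAMP response element TGACGTCA in 1.55%, and neither was in a member. TTGCNNAA, the letters of a C/EBP site, was in 9.56% of promoters, TATAAA in 12.4% and CCAAT in 33.8%, and each was in the Hal promoter and in no other member. No overlap between motifs arose in the Otc promoter.

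Nags makes N-acetylglutamate, which Cps1 needs in order to work. Its level in mice 1 to 3 was 1.39, 1.41 and 1.45 in Ctrl, 1.42, 1.23 and 1.41 in RS, 1.43, 1.22 and 0.81 in DJ, and 1.27, 1.28 and 1.32 in DJ526. DJ replicate 3 had the lowest level, and the DJ526 mice lay below all Ctrl mice. Cps1, the mitochondrial enzyme that commits ammonia to the cycle, read 4.19, 4.34 and 4.86 in Ctrl, 3.93, 4.34 and 5.0 in RS, 4.04, 4.56 and 3.93 in DJ, and 4.46, 4.99 and 5.09 in DJ526. It had the widest spread of the 10 genes, 2.23-fold from DJ replicate 3 to DJ526 replicate 3, and RS alone spanned nearly as much, so that all groups overlapped.

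Otc joins carbamoyl phosphate to ornithine to form citrulline. Its brighter probe read 4.88, 4.92 and 4.94 in Ctrl, 5.06, 5.13 and 5.32 in RS, 4.93, 5.17 and 4.86 in DJ, and 5.05, 5.23 and 5.41 in DJ526. The Ctrl mice lay close together and below every RS and DJ526 mouse, while DJ overlapped the other groups. The dimmer probe of Otc, printed in 10 spots on the array, read 2.64, 2.63 and 2.78 in Ctrl, 2.71, 2.73 and 3.16 in RS, 2.76, 2.80 and 2.58 in DJ, and 2.67, 2.91 and 2.99 in DJ526. On it Ctrl overlapped both RS and DJ526. Slc25a15, which carries ornithine into the mitochondrion and citrulline out, read -0.08, 0.38 and -0.15 in Ctrl, -0.18, 0.09 and 0.25 in RS, -0.09, 0.63 and 0.26 in DJ, and 0.01, 0.13 and 0.29 in DJ526, and its groups overlapped throughout.

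In the cytosol Ass1 couples citrulline to aspartate. Its brighter probe read 7.73, 8.32 and 8.23 in Ctrl, 7.66, 8.18 and 8.32 in RS, 8.21, 8.17 and 8.09 in DJ, and 8.17, 8.36 and 8.38 in DJ526. The first mice of Ctrl and RS were low, and the groups overlapped. Asl cleaves the product into arginine and fumarate, and it read 5.15, 5.45 and 5.43 in Ctrl, 4.89, 5.36 and 5.41 in RS, 5.05, 5.10 and 4.99 in DJ, and 5.12, 5.39 and 5.28 in DJ526. The DJ mice lay below every Ctrl and DJ526 mouse, while RS replicate 1 was lower still. Arg1, which releases urea from arginine, read 5.94, 6.31 and 6.40 in Ctrl, 5.90, 6.35 and 6.34 in RS, 5.83, 6.33 and 6.33 in DJ, and 6.11, 6.29 and 6.54 in DJ526, with 1 low mouse in each group and all groups overlapping.

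Of the enzymes that feed the cycle, the liver glutaminase Gls2 read 6.06, 6.23 and 6.28 in Ctrl, 6.04, 6.39 and 6.61 in RS, 6.12, 6.39 and 6.05 in DJ, and 6.30, 6.43 and 6.49 in DJ526. All DJ526 mice lay above all Ctrl mice, by a gap smaller than the spread within either group. Glud1, glutamate dehydrogenase, read 6.40, 6.00 and 6.11 in Ctrl, 6.34, 6.32 and 6.20 in RS, 6.30, 6.48 and 5.99 in DJ, and 6.36, 6.32 and 6.52 in DJ526 on its brighter probe. Hal, which removes ammonia from histidine, read 4.98, 4.92 and 4.36 in Ctrl, 4.76, 4.72 and 5.03 in RS, 4.64, 5.24 and 4.63 in DJ, and 4.91, 4.71 and 5.26 in DJ526. For Glud1 and Hal all groups overlapped.

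**Figure D1:**
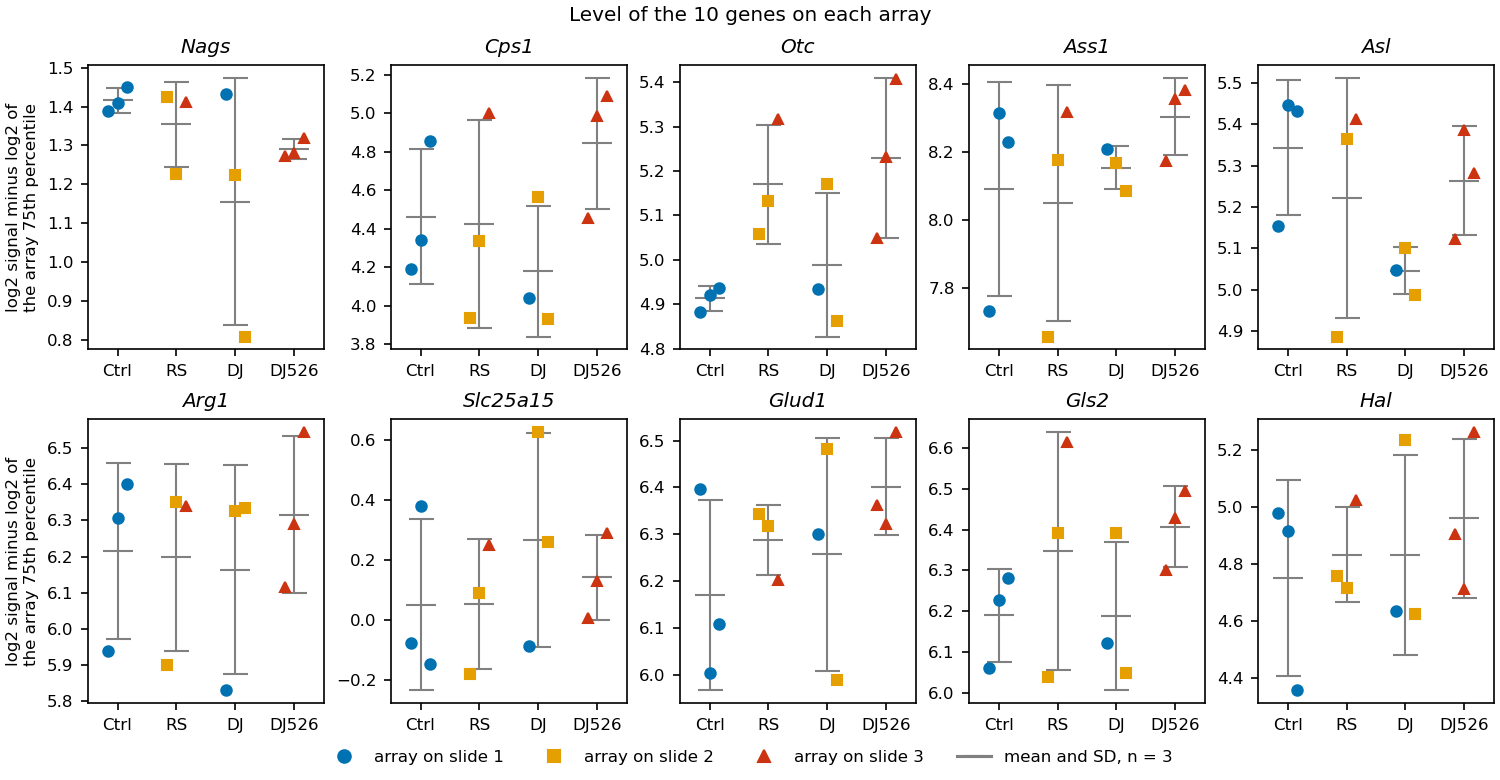
Level of the brighter probe of each of the 10 genes (vertical axes, log2 units, a scale per panel) on the 3 arrays of each diet, with bars for the mean and SD and marker shapes for the slide. For Cps1, Otc and Gls2 the 3 highest arrays were RS replicate 3 and DJ526 replicates 2 and 3, all on slide 3, while DJ526 replicate 1, on the same slide, lay mid-range at 4.46, 5.05 and 6.30.

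Ordered by group mean on the brighter probe, DJ526 was highest for 7 of the 10 genes, Ctrl for 2 (Asl and Nags) and DJ for 1 (Slc25a15). The count depends on the probe. On the dimmer probe DJ was highest for Glud1 and RS for Otc, while DJ526 stayed highest for Ass1. On the brighter probes the lowest were as follows. DJ was lowest for 5, Ctrl for 4 and RS for 1. The steps between neighbouring groups were small. Of the 30 steps 1 exceeded the SD within groups, that from RS to DJ for Otc, and in 0 of them did the arrays of the neighbours fail to overlap. The SD within groups was 0.139 (Otc) to 0.400 (Cps1), with a median of 0.216 over the 10 genes, beside a median of 0.131 over the 9591 probes with a mean level above 0.

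Resveratrol in the starch and sucrose diet was examined by RS against Ctrl. In limma with Benjamini-Hochberg adjustment over all probes, 0 of the 13 probes passed an adjusted p of 0.05, as did 0.0% of all probes. At an unadjusted p under 0.05 there was 1 member probe, the brighter probe of Otc, where 6.0% of all probes lay. Otc was higher in RS by 0.26 (SE 0.108, n = 3 and 3, limma adjusted p = 0.802), with the groups apart, which held for 10.2% of probes. Its dimmer probe differed by 0.18 (SE 0.127). Of the 10 genes 5 had a higher and 5 a lower mean in RS, with a median of -0.01 where that of all probes was 0.03, and the 9 genes beside Otc lay between -0.12 and 0.16. The balance turned on single mice, with 9 higher and 1 lower (median 0.13) without RS replicate 1 and 3 higher and 7 lower (median -0.09) without RS replicate 3.

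Dongjin rice in place of starch and sucrose, DJ against Ctrl, also gave 0 of 13 probes at the adjusted threshold (0.0% of all probes in limma). Asl was the 1 member probe at an unadjusted p under 0.05 (5.22% of all probes), lower in DJ by 0.30 on the log2 scale (log2 difference -0.30, SE 0.135, n = 3 and 3, limma adjusted p = 0.953), and the 1 gene whose groups lay apart (9.34% of probes). DJ means were higher for 5 genes and lower for 5, with a median of 0.03 against -0.02 over all probes. Without DJ replicate 2, 2 were higher and 8 lower (median -0.11), and without DJ replicate 1, 7 were higher and 3 lower (median 0.05). The 9 other genes lay between -0.28, for Cps1, and 0.22, for Slc25a15. On slide 1, where both diets were present, DJ replicate 1 was 0.30 lower than the mean of the 3 Ctrl mice for Asl (log2 difference -0.30) and 0.42 lower for Cps1 (-0.42).

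Resveratrol-enriched rice against the control diet, DJ526 against Ctrl, had 0 of 13 member probes at the adjusted threshold, beside 0.00507% of all probes. The brighter Otc probe was the 1 at an unadjusted p under 0.05 (10.8% of all probes), higher in DJ526 by 0.32 (SE 0.108, n = 3 and 3, limma adjusted p = 0.333). The groups lay apart for 3 genes, Otc, Gls2 and Nags, and for 4 of the 13 probes, where 20.6% of all probes did. Gls2 was 0.22 higher in DJ526 (SE 0.139, limma adjusted p = 0.598), and Nags differed by -0.13 (SE 0.129, limma adjusted p = 0.761). Means were higher in DJ526 for 8 of the 10 genes and lower for Nags and Asl. Their median was 0.21, beside 0.02 over all probes. It was 0.09 without Ctrl replicate 1 and 0.12 without DJ526 replicate 3, and 0.03 with normexp background correction, where 5 genes were higher and 4 lower. Cps1 had the largest mean difference, 0.38 (SE 0.283), and its mice overlapped.

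DJ526 against its parent rice DJ had 0 of 13 probes at the adjusted threshold and 0.0101% of all probes. Cps1 was higher in DJ526 by 0.66, 1.59-fold (SE 0.283, n = 3 and 3, limma adjusted p = 0.487), and Otc by 0.24 (SE 0.108, limma adjusted p = 0.505). These were the 2 member probes at an unadjusted p under 0.05 (9.81% of all probes), and for both the groups overlapped. Asl was higher by 0.22 with the groups apart (SE 0.135, limma adjusted p = 0.613), as were 3 member probes and 18.4% of all probes. The other 2 probes that lay apart were the dimmer ones of Ass1, at 0.33, and Glud1, at -0.23. Means were higher in DJ526 for 9 of the 10 genes, all but Slc25a15, with a median of 0.15 beside 0.04 over all probes. Without DJ replicate 2 the median was 0.25, and with arrays scaled to their medians it was 0.07.

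For DJ526 against RS, both with resveratrol, 0 of 13 probes passed the adjusted threshold (0.00761% of all probes), 0 had an unadjusted p under 0.05 (5.5%) and 0 lay apart (11.1%). The methods' t-test gave 0 at that unadjusted threshold too. Means were higher in DJ526 for 9 genes, with a median of 0.10 beside -0.00 over all probes. Without RS replicate 1 these were 5 higher and 5 lower with a median of -0.01, and without DJ526 replicate 3 the median was 0.02. The interaction, DJ526 minus DJ set against RS minus Ctrl, had 0 member probes adjusted (0.0% of all probes) and 0 unadjusted (6.09%), and the largest value was that of Cps1, 0.70 (SE 0.400, limma adjusted p = 0.876). Rice against starch and sucrose, over 6 mice each, had 0 adjusted (0.0%) and 0 unadjusted (4.57%), with all 10 genes between -0.16 and 0.16. After adjustment the methods' t-test passed 0 member probes in each of the 7 comparisons, and unadjusted it had 2 in DJ526 against Ctrl (12.8% of all probes), 1 each in DJ526 against DJ (10.8%), RS against Ctrl (5.01%) and DJ against Ctrl (4.62%), and 0 in DJ526 against RS (6.13%), rice (4.94%) and the interaction (6.2%). Without a block for the slide, the 95% intervals against Ctrl ran from 0.533-fold, for Cps1 in DJ, to 2.00-fold, for Cps1 in DJ526, over all 10 genes and the 3 diets. With the slide as a block they ran from 0.254-fold, for Cps1, to 2.25-fold, for Glud1, both in DJ526.

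**Figure D2:**
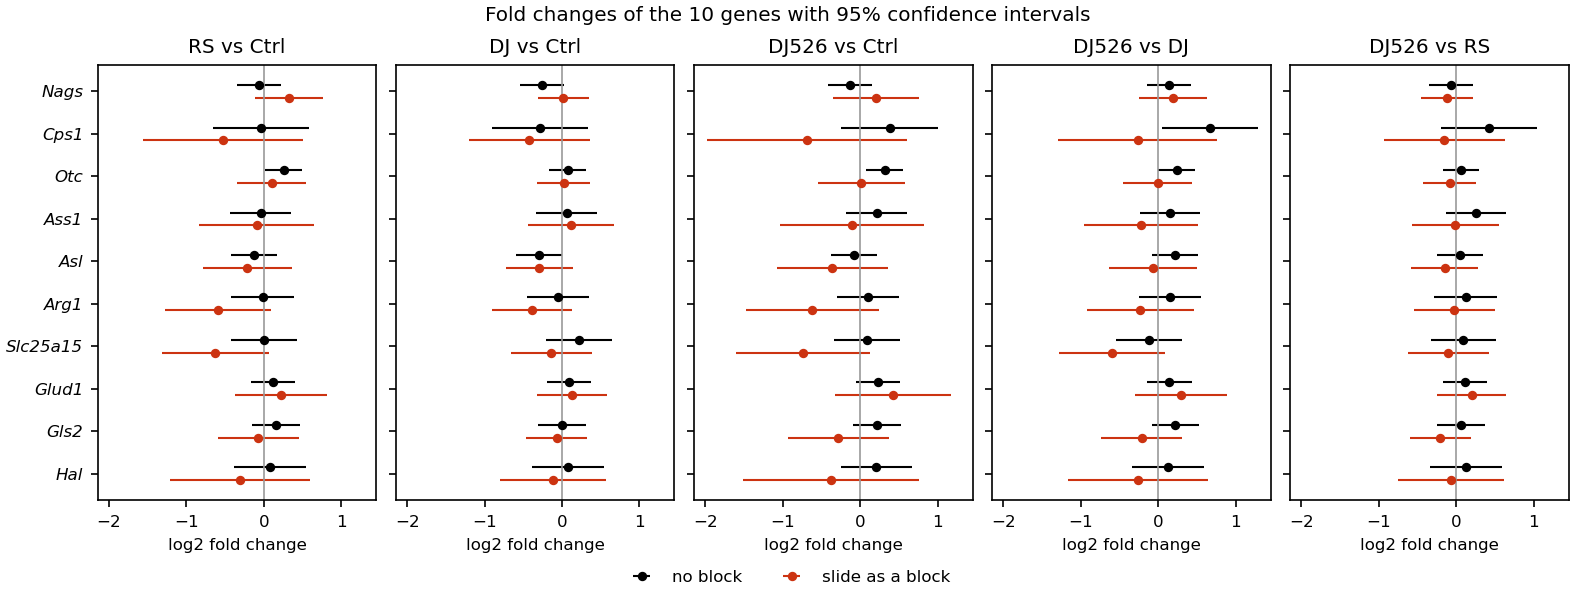
log2 fold changes (horizontal axes) of the 10 genes in 5 comparisons, with 95% confidence intervals from limma, without a block (black) and with the slide as a block (red). In DJ526 against DJ the black points lay right of 0 for 9 of 10 genes and the red points for 2 of 10.

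Slide 3 held the DJ526 arrays and 1 array of another diet, RS replicate 3, which was the highest RS mouse for 7 of the 10 genes. The exceptions were Nags, Arg1 and Glud1, and for Glud1 it was the lowest RS mouse (6.20). It ranked the highest of all 12 mice for Gls2 (6.61) and next to the highest for Cps1 (5.0) and Otc (5.32). Within slide 3 the DJ526 mean was lower than RS replicate 3 for 9 of the 10 genes, by a median of 0.10 on the log2 scale (median difference -0.10), with -0.16 for Cps1, -0.09 for Otc and -0.21 for Gls2. This rests on 1 RS array. Within slide 2 the 2 DJ mice were higher than the 2 RS mice for 6 genes and lower for 4.

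With the slide as a block, 3 genes had a higher mean in DJ526 than in Ctrl and 7 a lower one, and against DJ 2 were higher and 8 lower. The median of the 10 genes was -0.32 and -0.22 in these comparisons with the block, and 0.21 and 0.15 without it. The median over all probes also moved under the block, to -0.12 and -0.10. Otc then differed by 0.01 (SE 0.248) between DJ526 and Ctrl and by 0.10 (SE 0.198) between RS and Ctrl, and Cps1 by -0.27 (SE 0.455) between DJ526 and DJ. None of the 13 probes had an unadjusted limma p under 0.05 with the block, in any of the 7 comparisons, and the 95% interval of each of these values included 0. For DJ526 against Ctrl or DJ the diet and the slide cannot be told apart from arrays of 1 slide.

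The genes with more than 1 probe gave a reading within each array that does not depend on its scaling. The level of the brighter minus the dimmer probe of Ass1 was 0.53 to 0.66 on the 8 arrays of slides 1 and 2 and 0.31 to 0.42 on the 4 arrays of slide 3, with RS replicate 3 the lowest at 0.31. For Glud1 the same difference was 0.31 to 0.38 on slide 3, with RS replicate 3 the highest at 0.38, and -0.43 to 0.21 on the other 8 arrays. The Glud1 probes therefore placed the groups differently. DJ526 against Ctrl was 0.23 (SE 0.130) on the brighter and -0.15 (SE 0.127) on the dimmer probe. DJ526 against DJ was 0.14 (SE 0.130) and -0.23 (SE 0.127). Over the 12 arrays the probes of a gene correlated with r = 0.97 for Ass1, 0.85 for Otc and 0.10 for Glud1, as a description. The Otc probes differed by 2.15 to 2.42, and RS replicate 3, at 2.16, lay apart from the DJ526 arrays, at 2.32 to 2.42.

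**Figure D3:**
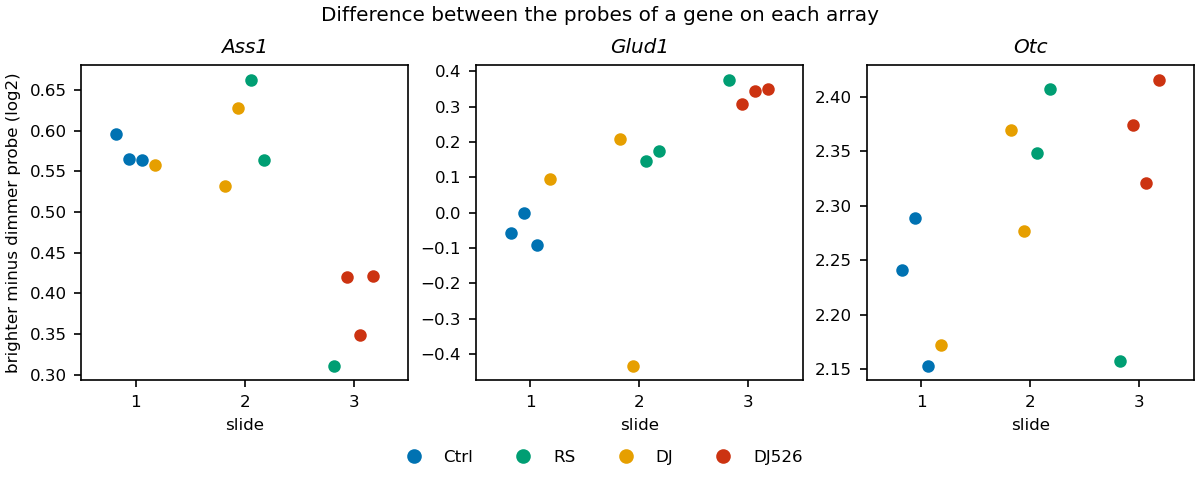
Level of the brighter minus the dimmer probe (vertical axes, log2) of Ass1, Glud1 and Otc on each of the 12 arrays, by slide (horizontal axes) and diet (colour). For Ass1 and Glud1 the 4 arrays of slide 3, RS replicate 3 included, stood apart from the other 8.

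Levels of several members went together from mouse to mouse. Of the 45 pairs of genes, 38 had a Pearson correlation above 0 over the 12 arrays, 5 had one above 0.7, and the median was 0.38. The highest were Cps1 with Gls2 (r = 0.88), Otc with Gls2 (0.85), Cps1 with Otc (0.75), Ass1 with Gls2 (0.73) and Cps1 with Asl (0.72). After the mean of each diet was taken out, the highest were Ass1 with Asl (0.95), Cps1 with Gls2 (0.93), Asl with Gls2 (0.86) and Cps1 with Otc (0.86). Nags stood furthest from the rest, with -0.38 for Slc25a15 and -0.31 for Arg1. The arrays of a pair share scaling, labelling and slide, and these values are descriptions.

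Within groups the same mice tended to be high or low across genes. The first Ctrl mouse was the lowest of its group for 7 of 10 genes and the first RS mouse for 7. In DJ526 the first mouse was the lowest for 8 and the third mouse the highest for 9. In DJ the order differed, with the third mouse the lowest for all genes but Arg1 and Slc25a15, where the first was.

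**Figure D4:**
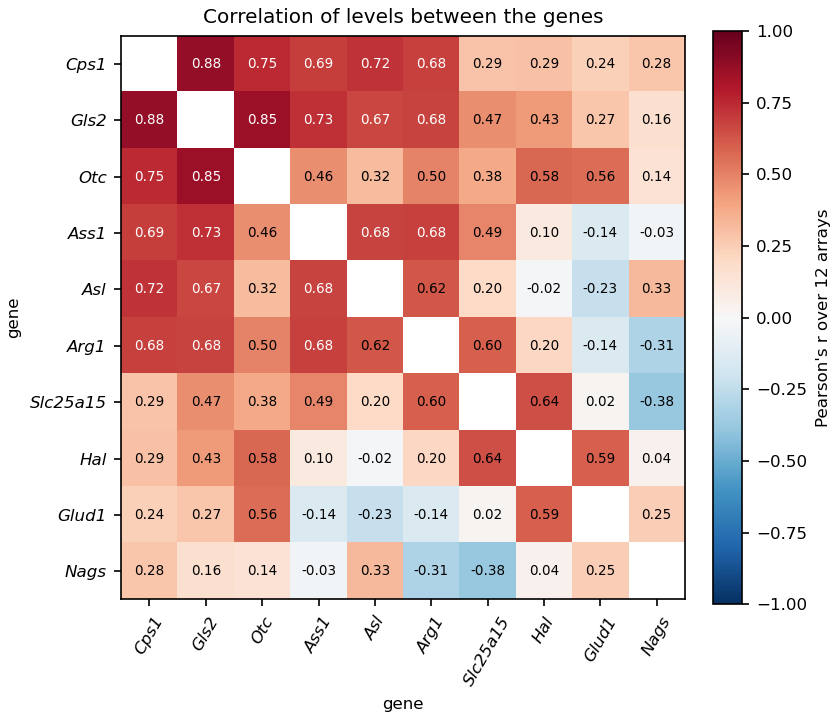
Pearson's r over the 12 arrays (colour and printed value) between the levels of each pair of the 10 genes, named on both axes. The highest value was 0.88, for Cps1 with Gls2, and the lowest -0.38, for Nags with Slc25a15.

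Across all 15595 named genes well above background on every array, those most like Cps1 were Gucy1b1 (r = 0.94 over 12 arrays), Gm7168 (0.94), Cphx1 (0.92), Krt9 (0.91) and Rhox7a (0.91). None of these 5 is a urea cycle gene. All 5 lay below the 75th percentile of every array, with Gm7168 at -6.26 to -5.20 and Rhox7a at -4.93 to -3.92. The highest array of each was on slide 3. Gls2 was 14th, and the next members were Otc in place 348, Asl in 504, Ass1 in 731 and Arg1 in 789.

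Genes that work beside the cycle were counted from fixed lists. Of 26 carriers, companion enzymes and ammonia handlers, 0 were called by limma in each of the 7 comparisons. At an unadjusted p under 0.05, 3 were higher and 1 lower in RS than in Ctrl (6.0% of all probes lay under that p), 1 and 1 in DJ (5.22%), 2 and 3 in DJ526 (10.8%), and for DJ526 against DJ 1 and 1 (9.81%). The medians of the list stayed between -0.10 and 0.07. Slc38a5, an amino acid transporter that carries glutamine, read -3.83, -4.03 and -2.18 in Ctrl and was lower in the other diets, at -5.06, -5.40 and -4.74 in RS, -5.23, -5.19 and -4.11 in DJ, and -4.98, -4.27 and -5.51 in DJ526. The 3 Ctrl mice lay above the 9 others, with Ctrl replicate 2 (-4.03) narrowly above DJ replicate 3 (-4.11) and Ctrl replicate 3 far higher. Ctrl lay apart from RS, DJ and DJ526 for 10.2%, 9.34% and 20.6% of all probes. The log2 differences of Slc38a5 were -1.72, -1.5 and -1.58 (SE 0.502 each), none of which passed the adjusted threshold. Gpt, alanine aminotransferase, was 0.33 higher in RS and 0.31 higher in DJ526 than in Ctrl (SE 0.0983 each), and Aldh4a1, an enzyme of proline breakdown, 0.24 higher in RS (SE 0.0827). Rhbg, an ammonia channel of pericentral hepatocytes, differed by -0.78 between DJ526 and Ctrl and by -0.99 between DJ526 and DJ (SE 0.258 each), and Slc7a2, a carrier of arginine and ornithine, by 0.48 and 0.63 (SE 0.181 each). On slide 3 RS replicate 3 read -0.21 for Rhbg and 0.61 for Slc7a2, the lowest and the highest of the RS mice.

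Of 5 genes of the histidine pathway after Hal, 0 were called in any of the 7 comparisons. Ftcd, a later enzyme of that pathway, was 0.26 higher in DJ526 than in Ctrl and 0.23 higher than in DJ (SE 0.101 each) at an unadjusted p under 0.05. Of 26 genes for the breakdown of other amino acids 0 were called, and the unadjusted counts against Ctrl were 2 higher in RS, 4 in DJ and 3 in DJ526, with 0 lower, where 6.0%, 5.22% and 10.8% of all probes passed. For DJ526 against DJ, 1 was higher and 2 were lower (9.81% of all probes). Agxt, which disposes of glyoxylate, was 0.64 higher in DJ and 0.74 higher in DJ526 than in Ctrl (SE 0.212 each), and Cbs, which makes cystathionine, 0.41 and 0.40 higher (SE 0.173 each). Agxt2 was 0.44 higher in RS and 0.37 higher in DJ than in Ctrl (SE 0.148 each), and Aass, which starts the breakdown of lysine, 0.32 higher in DJ526 than in Ctrl and 0.37 higher than in DJ (SE 0.128 each). Gldc, of the glycine cleavage system, was 0.62 higher in DJ than in Ctrl and differed by -0.64 between DJ526 and DJ (SE 0.238 each), and Bhmt, which remethylates homocysteine, by -0.74 between DJ526 and DJ (SE 0.323). Of 15 regulators, among them the glucagon receptor Gcgr, Hnf4a, Cebpa and Nr3c1, 0 were called. At an unadjusted p under 0.05, Foxo1 was 0.36 higher in DJ526 than in Ctrl (SE 0.160, 10.8% of all probes). Insr was 0.28 higher in DJ526 than in DJ (SE 0.113, 9.81%). Ppargc1a was 0.54 higher in DJ526 than in RS (SE 0.241, 5.5%) and 0.42 higher in rice than in starch and sucrose (SE 0.170, 4.57%).

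Defining markers of liver were present. All 8 periportal and 10 pericentral hepatocyte markers and the 5 of 6 hepatocyte markers found on the array were well above background on every array, and of the adipocyte and pancreas markers 0 of 2 and 1 of 3 were. The 2 intestine, 4 lymphocyte and 3 erythroid markers were also well above background on every array, so that this measure does not separate liver from other tissue, with summed linear levels of 23.1 to 44.5, 2.06 to 3.86 and 67.4 to 240 over the 12 arrays. In bulk liver, fewer cells of a type and less RNA per cell cannot be told apart. The summed linear level of the 8 periportal markers, Hal among them, was 311 to 332 in Ctrl, 314 to 332 in RS, 296 to 367 in DJ and 329 to 388 in DJ526, and these ranges overlapped. The 10 pericentral markers summed to 367 to 571 in Ctrl, 459 to 562 in RS, 528 to 577 in DJ and 420 to 470 in DJ526, where DJ526 lay below DJ. A sum of linear levels follows the most abundant markers, and the median log2 difference of the 10 between DJ526 and DJ was 0.07, with 1 of them (Rhbg) lower and 0 higher at an unadjusted p under 0.05. Against Ctrl, Cyp1a2, which metabolizes caffeine, was 0.79 higher in RS and 0.77 higher in DJ526 (SE 0.226 each), and Cyp7a1, the rate-limiting enzyme of bile acid synthesis, differed by -1.19 in DJ and by -0.99 in DJ526 (SE 0.415 each). The 5 hepatocyte markers summed to 1750 to 2024 in Ctrl, 1924 to 2031 in RS, 2064 to 2158 in DJ and 1775 to 1823 in DJ526, so that DJ lay above the other diets and DJ526 within the range of Ctrl. Alb was lower in DJ526 than in DJ (log2 difference -0.29, SE 0.0692, limma adjusted p = 0.230), against the direction of Cps1, Otc and Asl. The part of these markers in the values of the cycle genes was not tested.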

How the data were processed

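Liver RNA of 12 mice was measured on single-colour arrays whose design names mm9. The authors scanned them, and the deposited files hold the signal intensity of each of 43020 non-control spots from Feature Extraction (version 11.5.1.1, per the file headers), background-subtracted on a linear scale, besides a deposited table of globally normalized intensity values. Extraction is given as Trizol in the labels and RNeasy in the methods.

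Spots of a probe were averaged without outlier flags (93 to 197 spots per array), put on the log2 scale and scaled to the 75th percentile of their array. A single symbol was found for 69.8% of probes. limma (version 3.58.1, R 4.3.3) was fitted to all probes with 4 group means, a variance trend and Benjamini-Hochberg adjustment at 0.05, and was tested on simulated data. Signal over background and 3 arrays per group limit the precision. The p-values measure the spread between arrays of a group, where differences between mice, labelling and arrays are not separated, and the mice shared cages. This fit had no term for the slide. Any slide differences therefore enter the spread within RS and DJ, whose arrays lay on different slides, and not that within Ctrl or DJ526. A permutation test of 3 against 3 cannot go below 0.1 and was not used.

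The members and the lists were chosen with earlier results of these data known. Each gene was read by its brightest probe. Fold changes were named at an unadjusted p under 0.05 or where groups did not overlap, and list genes only at an unadjusted p under 0.05, up to 5 a list with the smallest p first. Values outside this rule, such as those of Bhmt, the markers and the probe pairs, were chosen after they were seen. Alternatives covered scaling, background, filters, variance trend, blocks, groups in the fit, the methods' t-test, the deposited table and leaving out each mouse. Coordinates of the array genes are not given, since the annotation at hand is of another build.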

Additional observations from a re-analysis of the deposited data

How the results depend on the processing

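Each of the 7 comparisons kept 0 of 13 member probes at the adjusted threshold under all alternatives run, in 166 of 166 recomputed counts over 24 settings. The lowest adjusted p of a member was 0.127, for the brighter Otc probe in DJ526 against Ctrl with normexp on the median pixel, where Otc stood at 0.67. Under normexp the brighter Ass1 probe had no value in DJ526, because the local background of its spot was flagged on those 3 arrays. This flag was used under normexp and not otherwise. For the brighter Otc probe it removed DJ526 replicate 1, the lowest DJ526 mouse there, so that 0.67 rests on DJ526 replicates 2 and 3. The loss of this mouse does not account for all of the rise, since the main setting without it gave 0.41. In RS against Ctrl, where this probe lost no array, normexp gave 0.47 (SE 0.109, limma adjusted p = 0.389), in place of 0.26. Arg1, Hal and the brighter Glud1 probe also lost arrays under normexp. The fit with only the groups compared does not exist for the 2 comparisons that use all 4 groups. The slide as a block turned 5 of the 8 named differences, with Gls2 at -0.28 and Nags at 0.21 for DJ526 against Ctrl, and Asl at -0.066, Cps1 at -0.27 and Otc at -0.0092 for DJ526 against DJ. The block compares mice across 3 slides that share few diets, and the cause was not tested. No other alternative turned a named difference. Counts and medians over the 10 genes that turned on 1 mouse are given with each comparison of 1 diet with another. For rice against starch and sucrose, 8 genes were higher and 2 lower (median 0.07). Without RS replicate 1 (median -0.0007) or DJ replicate 2 (-0.0019) they were 5 and 5. For the interaction, 8 were higher and 2 lower (median 0.12). Without DJ replicate 3 these were 5 and 5 (0.01), and without DJ replicate 2 they were 10 and 0 (0.22). Leaving out 1 mouse gave 0.18 to 0.31 for Otc in RS against Ctrl, 0.23 to 0.41 in DJ526 against Ctrl and 0.15 to 0.33 in DJ526 against DJ, and 0.54 to 0.86 for Cps1 in DJ526 against DJ. The deposited table moved the median over all probes to 0.10 for DJ526 against DJ. Taking off a local shift across the array, an alternative chosen after seeing the data, left 0 members called.

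Same-numbered mice of different groups had correlations over all probes of -0.273 to 0.258 in 18 pairs, 4 of them over 0.1. Over all probes, then, the numbers did not pair the mice, which does not settle it for single genes. With the replicate block, Otc in DJ526 against Ctrl remained at 0.32 and 0 member probes were called. The SE of Arg1 was 0.075 with this block and 0.183 without it. In the interaction 2 member probes, of Asl and Cps1, then had an unadjusted limma p under 0.05, beside 2297 of all 39429 probes.

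Counts of calls over all 39429 probes changed with the setting. Even the largest was a small share of these probes, so that 0 of 13 members does not show the members to be steadier. Without RS replicate 3 there were 173 calls for DJ526 against Ctrl, in place of 2, and 107 for DJ526 against DJ, in place of 4. The slide block gave 40 for DJ526 against RS, in place of 3, 8 for DJ against Ctrl and 3 for rice, in place of 0 each. Without RS replicate 1 there were 4 for RS against Ctrl, and without DJ replicate 1 there were 19 for the difference between the effects of resveratrol, in place of 0 each.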
